A study of Mus musculus with 35 samples.

Results

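The genes described here encode 10 surface molecules through which dendritic cells stimulate or restrain T cells. They were taken by name from a list, namely Cd80, Cd86, Cd40, Icosl, Tnfsf9, Cd70, Tnfsf4, Cd274, Pdcd1lg2 and Cd200, and all 10 were found among the 19938 named genes of the array. Levels were read from 35 Affymetrix arrays of type 1 conventional dendritic cells (cDC1), which had been sorted from mouse spleen. Set 1 compared 4 arrays of MyclGFP/GFP cells (Mycl KO) with 5 of MyclGFP/+ cells (heterozygous) at steady state, and set 2 compared 5 MyclGFP/GFP with 5 Mycl+/+ (WT) arrays at steady state. Set 3 compared 5 Mycl KO with 5 WT arrays taken 5 h after 100 µg of poly IC had been injected into the peritoneum. Poly IC is an RNA duplex made in the laboratory that stands in for viral RNA and sets off the interferon response. The Mxd1 set compared 3 arrays labelled Mxd1-/- with 3 of Mxd1+/+ cells, taken 18 h after the same dose. The KO alleles are carried in the germline, so cells other than cDC1 carried them too. The GFP allele was present in both groups of set 1 and in the KO groups alone of sets 2 and 3. The sources used here give neither strain nor age, do not say whether steady-state mice received the carrier, and name biological replicates without saying whether each array is a separate mouse. The p-values then measure the spread between these arrays only.

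A T cell that meets its antigen needs a further signal from the presenting cell to divide and survive. Resting dendritic cells carry less of these signals than activated ones. Sensing of viral RNA, interferon or engagement of CD40 raises both the stimulatory molecules and the inhibitory ones that limit the response. cDC1, which present antigens of dying cells to CD8 T cells, depend on several of them for priming killer cells. Mycl encodes the MYC family factor of dendritic cells and Mxd1 a repressor that shares its partner MAX. The comparisons address what either factor changes in these cells at rest or under poly IC.

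All values are log2 levels after RMA, a method that corrects background, equalises arrays and summarises the probes of a transcript. The 4 sets differed in scale (array medians of 6.50 to 6.57, 5.55 to 5.60, 5.47 to 5.53 and 5.95 to 6.01) and were treated as normalized separately, so tests were made within sets. On the arrays, fewer cells that carry a transcript and less of it per cell cannot be told apart. All 10 cDC1 markers, such as Xcr1 and Clec9a, lay above the 30th percentile of each group, with list means of 10.29 to 11.72. The lists of other cell types averaged 4.73 to 7.39. All 7 measured markers of plasmacytoid dendritic cells and 3 to 9 of the 9 to 11 measured in each other list were above that percentile. In sets 1 and 2 the Mycl KO arrays had low Mycl levels (6.78 to 7.11 against 9.65 to 9.93 on heterozygous arrays, and 5.51 to 5.80 against 9.55 to 9.79 on WT arrays). In set 3, the Mycl KO arrays had 5.84, 5.99, 8.87, 5.52 and 6.14 and the WT arrays 9.03 to 9.81, so KO array 3 goes against its label. Mxd1 had 10.64, 10.49 and 10.41 on the arrays labelled Mxd1 KO and 11.03, 10.81 and 10.63 on the WT arrays, which differ by -0.31 ± 0.11 (SE; adjusted p = 0.260, not past the test). Whether the Mxd1 probes lie in the deleted part was not tested, so those arrays are called labelled Mxd1 KO. Arrays 1 and 4 of the WT group in set 3 had weak expression of interferon response genes (list means 7.20 and 8.34) beside 10.26 to 10.70 on the KO arrays and 10.21 to 10.50 on the other 3 WT arrays.

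**Figure D1:**
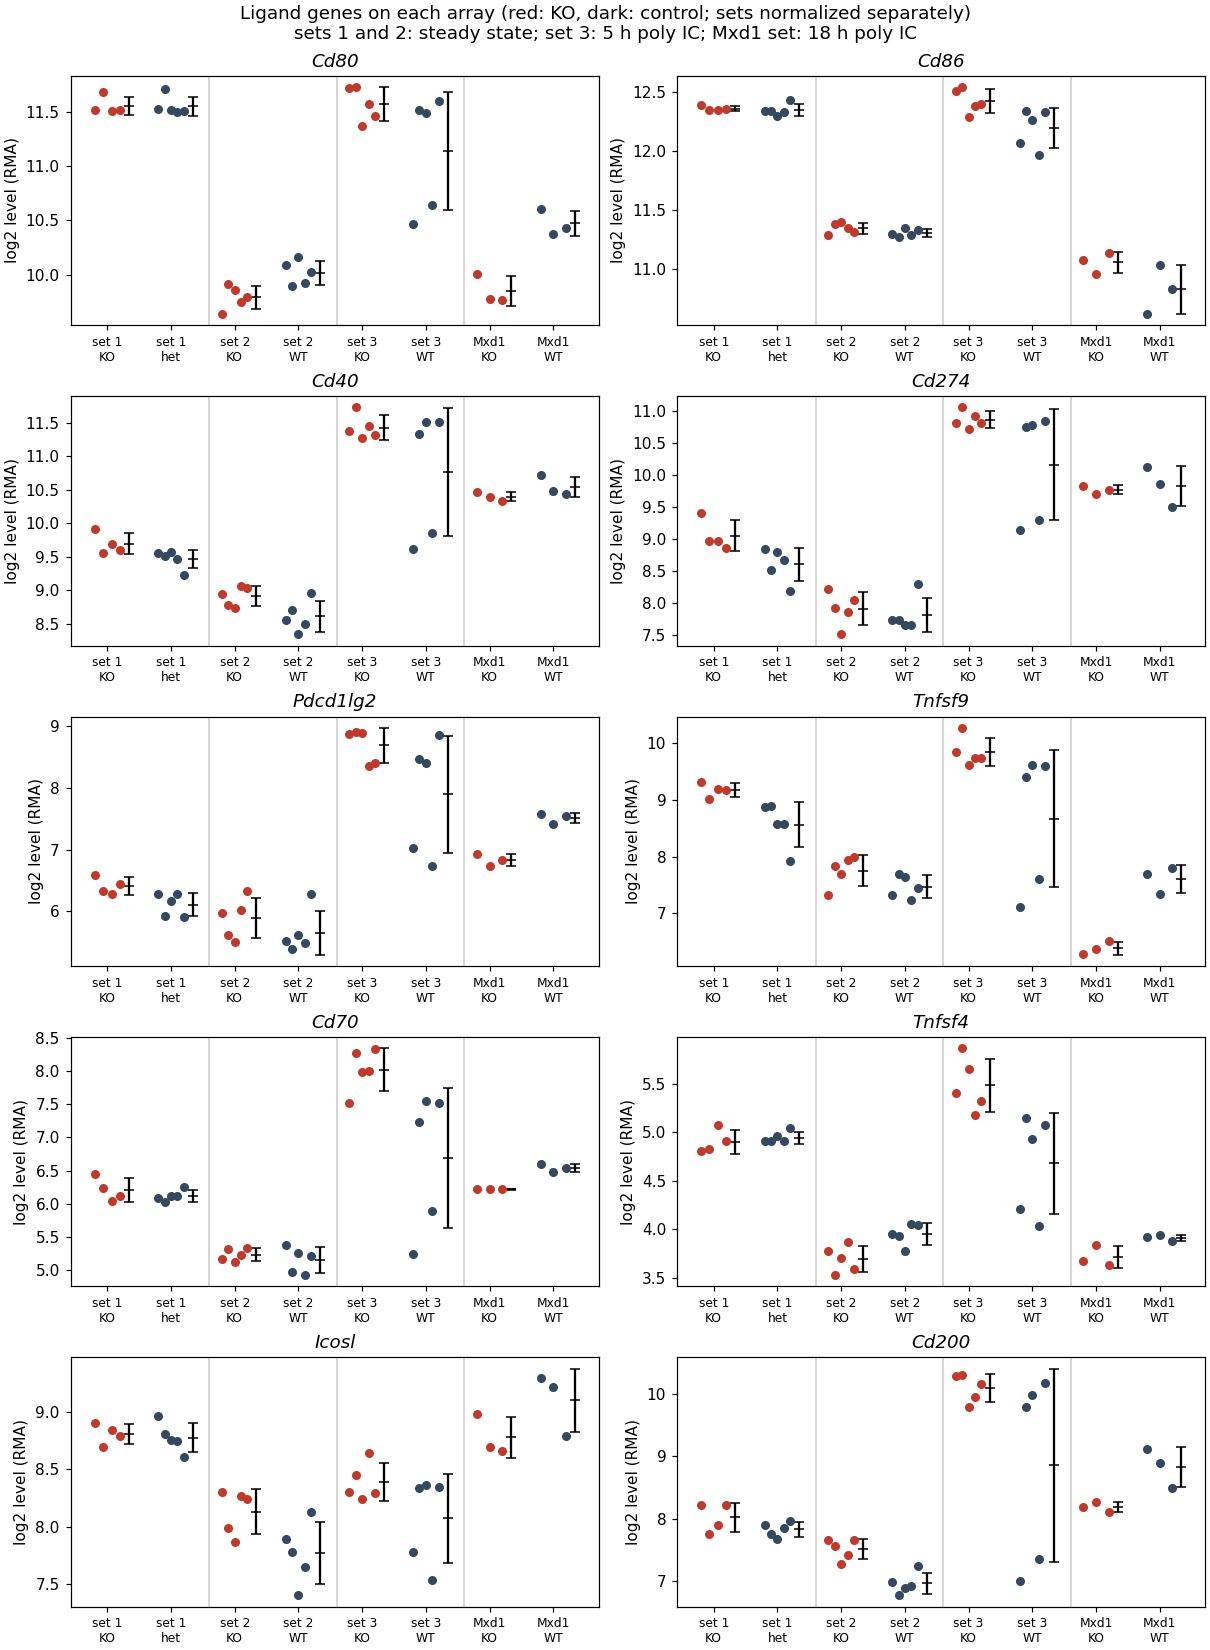
Log2 level of each of the 10 genes (a panel each) on every array, with KO groups in red left of their control groups in dark, and the mean ± SD beside each group. Sets were normalized separately, so points compare within a set, marked off by the vertical lines. In set 3 the WT arrays split into 3 near the KO arrays and 2 well below them for most genes, while Tnfsf9, Pdcd1lg2, Cd80, Cd70, Cd200 and Tnfsf4 lie lower on all arrays labelled Mxd1 KO than on any Mxd1 WT array.

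In resting cDC1, transcripts of several T cell ligands lay slightly higher without Mycl, while the B7 genes Cd80 and Cd86 did not. Tnfsf9, which encodes the 4-1BB ligand that sustains CD8 T cells, Cd200, whose product calms myeloid cells through its receptor, and Cd40, the receptor through which helper T cells activate dendritic cells, rose when both steady-state sets were fitted together with the set as a block. Controls in that fit were heterozygous in set 1 and WT in set 2, and Mycl itself differed by -2.88 and -4.03. Cd200 rose by 0.38 ± 0.08 over both sets (adjusted p = 0.00734 by limma). In fits of a single set, Cd200 passed in set 2, and Tnfsf9 and Cd40 passed in neither. In the joint fit Cd86 differed by 0.03 on the log2 scale and Cd80 by -0.12, neither past the test.

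In set 2, Cd200 was the member that passed limma's test. Its levels were 7.65, 7.56, 7.27, 7.41 and 7.65 on the Mycl KO arrays and 6.98, 6.77, 6.89, 6.92 and 7.24 on the WT arrays. The groups did not overlap, with the lowest KO array just above the highest WT array. The rise was 0.55 ± 0.09 (SE; 1.46-fold, adjusted p = 0.00323 by limma over all genes tested). With all 8 groups in 1 fit it did not pass (SE 0.36, adjusted p = 0.541). Of 14012 genes tested 6.14% were called, 3.78% higher and 2.36% lower in KO, beside 1 of the 9 members tested. Groups without overlap were found for 6.74% of genes (3.74% higher in KO) and for Cd200 alone among the tested members. In set 1 the same gene had 8.22, 7.75, 7.90 and 8.21 on KO arrays and 7.90, 7.75, 7.66, 7.85 and 7.96 on heterozygous arrays. Those groups overlapped, and the difference of 0.19 ± 0.10 did not pass (adjusted p = 0.409). The difference between the effects of sets 2 and 1 was 0.36 ± 0.14 (adjusted p = 0.214), and it was tested for 9 members with 0 called, beside 1.01% of all genes.

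Markers of other cell types moved on the same arrays of set 2. Of 6 cDC2 markers tested, 2 rose and 1 fell. Cd209a, a lectin of cDC2 and monocyte-derived cells, rose by 1.37 ± 0.25 (adjusted p = 0.00597), Itgam rose by 0.44 ± 0.08 and Cd4 fell by 0.53 (SE 0.07). The mean of that list ranged from 5.27 to 5.81 on KO arrays and from 5.23 to 5.43 on WT arrays. Of 5 B cell markers tested, Cd22 rose by 0.70 and Ms4a1, which encodes CD20, fell by 0.58, and of 6 T and NK cell markers 0 were called. Of 7 plasmacytoid markers 3 rose (Tcf4 by 0.50, Ccr9 by 0.43 and Lair1 by 0.36) and Pacsin1 fell by 0.54. Their mean was 6.54 to 6.73 on KO arrays and 6.44 to 6.53 on WT arrays, just without overlap. Of 9 monocyte and macrophage markers 2 were called. Cd14 fell by 1.42 and Spic fell by 0.58, and the list's mean was 5.87 to 6.01 on KO arrays and 6.06 to 6.26 on WT arrays, again apart. Icos, the T cell receptor of Icosl, rose by 0.52 ± 0.13 (adjusted p = 0.0278). Of 19 interferon response genes tested, 4 rose (Irf7 and Cmpk2 by 0.43 each, Usp18 by 0.39 and Stat2 by 0.34) and 0 fell. Of 10 cDC1 markers 3 rose (Batf3 by 0.27, Tlr3 by 0.26 and Irf8 by 0.21) and Cd8a fell by 0.38. Among 13 genes of the MYC and MAX network, Myc rose by 1.18 ± 0.11 and Mycl fell by 4.03. The part of these cells and genes in the rise of Cd200 was not tested.

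Tnfsf9 lay higher in Mycl KO cells of either resting set. In set 1 it had 9.31, 9.02, 9.19 and 9.18 on KO arrays and 8.86, 8.89, 8.56, 8.57 and 7.92 on heterozygous arrays, with no overlap. The difference was 0.61 ± 0.17 (1.53-fold), and it did not pass the test over all genes (adjusted p = 0.190). In set 2 it had 7.32, 7.83, 7.69, 7.93 and 7.99 on KO arrays and 7.33, 7.70, 7.64, 7.23 and 7.45 on WT arrays, which overlap (0.28 ± 0.12, adjusted p = 0.175). Over both sets it rose by 0.44 ± 0.11 (1.35-fold, adjusted p = 0.0235).

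Cd40 differed by a similar amount in each set. The KO arrays of set 1 had 9.92, 9.56, 9.69 and 9.60 and the heterozygous arrays 9.56, 9.51, 9.56, 9.47 and 9.23. In set 2 the KO arrays had 8.95, 8.78, 8.73, 9.07 and 9.04 and the WT arrays 8.55, 8.71, 8.35, 8.50 and 8.95. The groups overlapped in set 2, where WT array 5 lay among the KO arrays, and met at 9.56 in set 1. The differences were 0.23 ± 0.09 (adjusted p = 0.287) and 0.30 ± 0.10 (adjusted p = 0.0905), and over both sets Cd40 rose by 0.27 ± 0.07 (1.20-fold, adjusted p = 0.0317). Over both sets 4.43% of 14639 genes were called, 2.01% higher and 2.43% lower in KO, and of the 9 members tested 3 rose and 0 fell. Without any 1 of 7 arrays Cd40 missed the threshold (adjusted p of 0.0578 to 0.0680; KO array 1 of set 1, KO arrays 1, 4 and 5 and WT arrays 1, 3 and 4 of set 2). With all 8 groups in 1 fit, which takes the spread of the poly IC arrays into account, none of Tnfsf9, Cd200 and Cd40 passed (adjusted p = 0.467, 0.662 and 0.610).

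The CD40 pathway was looked at through a list of 22 signalling genes, of which 19 were tested over both resting sets. Of these 3 rose and 0 fell, and the list's median was 0.09 beside 0.01 for all genes. Relb, an NF-kB subunit of the alternative pathway downstream of CD40, rose by 0.31 ± 0.08 (adjusted p = 0.0234). Nfkbia, the inhibitor that NF-kB itself induces, rose by 0.24 ± 0.06 (adjusted p = 0.0290), and Traf1, an adaptor of TNF receptors, rose by 0.21 ± 0.06 (adjusted p = 0.0410).

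The ligands of PD-1, the inhibitory receptor of activated T cells, are neighbours on chromosome 19. Cd274, which encodes PD-L1, and Pdcd1lg2, which encodes PD-L2, lie 22823 bases apart with 0 annotated genes between them. In set 1, Cd274 had 9.40, 8.97, 8.97 and 8.85 on Mycl KO arrays and 8.84, 8.51, 8.79, 8.66 and 8.19 on heterozygous arrays. The groups stood just clear of each other, and the difference of 0.45 ± 0.14 missed the threshold (adjusted p = 0.233). In set 2, Cd274 had 8.21, 7.91, 7.51, 7.85 and 8.04 on KO arrays and 7.73, 7.73, 7.64, 7.66 and 8.28 on WT arrays. Here the highest array was a WT one, and the difference was 0.10 with a 95% interval of -0.18 to 0.37. Pdcd1lg2 differed by 0.30 ± 0.10 in set 1 (adjusted p = 0.235) and by 0.24 ± 0.16 in set 2 (adjusted p = 0.456). Over both sets neither passed (Cd274 0.26 ± 0.11, adjusted p = 0.176; Pdcd1lg2 0.27 ± 0.11, adjusted p = 0.165). Without WT array 5 of set 2, which was high for both genes, they passed (0.33, adjusted p = 0.0466, and 0.35, adjusted p = 0.0255). Of the 19 fits that left out a single array, the other 18 left both genes short of the threshold.

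Of the B7 genes, Cd86 differed little at rest. It had 12.35 to 12.39 on KO and 12.30 to 12.43 on heterozygous arrays of set 1, and 11.29 to 11.40 on KO and 11.27 to 11.35 on WT arrays of set 2. The difference over both sets was 0.03 with a 95% interval of -0.04 to 0.09. Cd80, which like Cd86 binds CD28 and CTLA-4 on T cells, had 9.64, 9.91, 9.86, 9.75 and 9.80 on KO arrays of set 2 and 10.09, 9.89, 10.16, 9.92 and 10.02 on WT arrays. Among the 9 members tested it was the single one below 0 there, at -0.23 ± 0.07 (adjusted p = 0.0617). That value sat at the edge of the threshold, and Cd80 passed as lower with the mean of its 2 probe clusters (-0.39 ± 0.08, adjusted p = 0.0114) and with 3 other settings. In set 1 the difference was 0.00 with an interval of -0.12 to 0.13. Both B7 transcripts ranked high at rest, with mean percentiles within arrays of 99.2 to 99.5 for Cd86 and 96.0 to 98.5 for Cd80.

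Icosl, the ligand of ICOS, had 8.31, 7.99, 7.87, 8.26 and 8.24 on KO arrays and 7.90, 7.78, 7.40, 7.65 and 8.13 on WT arrays of set 2, a difference of 0.36 ± 0.12 (adjusted p = 0.0836). It passed with array weights, with the replicate number as a block and without KO array 3 or WT array 5 (adjusted p = 0.0352, 0.0204, 0.0478 and 0.0236). In set 1 it differed by 0.03 with an interval of -0.12 to 0.19. Cd70, the CD27 ligand of activated dendritic cells, differed by 0.09 in set 1 and 0.08 in set 2, with intervals of -0.09 to 0.27 and -0.10 to 0.26. Tnfsf4, the OX40 ligand, lay below the filter on low values in both sets and was not tested, at 4.81 to 5.08 on KO and 4.91 to 5.05 on heterozygous arrays of set 1, and at 3.53 to 3.87 on KO and 3.77 to 4.05 on WT arrays of set 2.

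In set 1 as a whole, 0 of 9 members passed limma's test beside 0.0214% of 14023 genes. Unadjusted p-values were under 0.05 for 4 of the 9, and 1991 of the genes. All 9 lay above 0, with a median of 0.19 beside 0.00 for all genes, and Cd274 and Tnfsf9 had groups without overlap, both higher in KO, beside 4.46% of genes in either direction and 1.74% in that one. In set 2, 8 of 9 lay above 0 with a median of 0.24 beside 0.01. The ligands were not alone in this, since 7 genes of migratory dendritic cells had medians of 0.27 in set 1 (6 of 7 above 0, 0 called) and 0.30 in set 2 (7 of 7 above 0, 1 called). Over both sets 2 of the 7 rose, Socs2 by 0.56 ± 0.14 (adjusted p = 0.0217) and Marcksl1 by 0.25 ± 0.04 (adjusted p = 0.00156). A list of 25 further ligands of antigen presenting cells, such as Icam1, Cd83 and Tnfsf10, had medians of 0.07 and 0.05 in the same comparisons. Of its 19 and 18 members tested, 0 were called in set 1 and 1 fell in set 2, the butyrophilin-like gene Btnl2 (-0.26 ± 0.05, adjusted p = 0.0128).

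**Figure D2:**
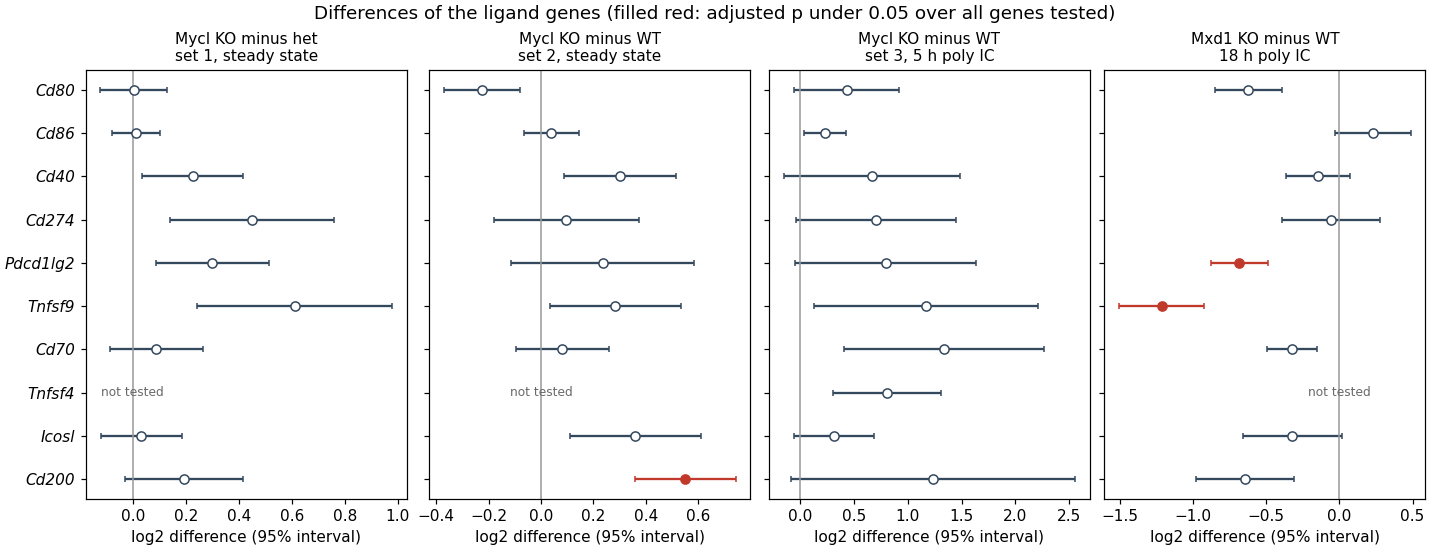
Log2 difference, KO minus control, of each gene in the 4 within-set comparisons, with the 95% interval of limma's fit. Filled red points passed the adjusted p threshold over all genes: Cd200 in set 2, and Tnfsf9 and Pdcd1lg2 in the Mxd1 set. Each panel has its own horizontal scale, and the intervals of set 3 are the widest.

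After 5 h of poly IC most of these genes stood well above their set 2 steady-state levels on Mycl KO arrays. Fewer did so without overlap on WT arrays. Because the steady-state and poly IC arrays belong to sets that were normalized separately, these levels are described without a test. In set 3, 9 of 10 members were at least 2-fold higher on Mycl KO arrays than on those of set 2 without overlap, beside 4.76% of genes. On WT arrays 4 of the 9 members that could be compared were, beside 2.27% of genes. With all arrays brought to a common distribution the counts were 8 and 3, beside 4.97% and 2.51% of genes. Both KO counts include Tnfsf4, which passed the filter on low values only through its poly IC levels. Tnfsf4 was not among the members compared on WT arrays, so the KO and WT counts rest on unlike members. Cd274 lay 2.95 higher on KO arrays, with a mean of 10.85 ± 0.13 after poly IC and 7.90 ± 0.26 at steady state (SD, n = 5 each). Pdcd1lg2 and Cd70 lay 2.80 and 2.79 higher, Cd200 2.59, Cd40 2.51, Tnfsf9 2.08, Cd80 1.78 and Cd86 1.08. The order depends on scale, since with the common distribution Cd70, Pdcd1lg2 and Cd274 lay 2.86, 2.82 and 2.78 higher. Tnfsf4 lay 1.79 higher, but its level in set 2 was below the filter on low values, so it was compared only through its poly IC level and that gap is not a measured size. Icosl differed by 0.25 and was the exception on KO arrays. Set 1, on another scale, was not used as a steady-state reference. On its KO arrays the mean percentiles of Cd80, Cd86, Tnfsf9 and Cd274 were 98.4, 99.5, 85.6 and 84.2. On KO arrays of set 3 they were 99.2, 99.8, 95.6 and 98.2.

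RefSeq promoters (GRCm38.p6) were held for 5 of the 10 genes. The sequences of Cd274, Pdcd1lg2 and Cd200, among the widest gaps between rest and poly IC, are shown for the 250 bases before the annotated start, on the coding strand. Capitals mark GAAA or its complement TTTC, the core of the sites that interferon regulatory factors bind.
Cd274 (chr19:29367188-29367437, plus strand): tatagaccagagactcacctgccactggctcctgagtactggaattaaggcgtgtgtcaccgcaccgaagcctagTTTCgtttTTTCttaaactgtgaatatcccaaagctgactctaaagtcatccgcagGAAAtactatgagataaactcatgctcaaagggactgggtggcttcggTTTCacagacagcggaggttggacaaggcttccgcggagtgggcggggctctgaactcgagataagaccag
Pdcd1lg2 (chr19:29410669-29410918, plus strand): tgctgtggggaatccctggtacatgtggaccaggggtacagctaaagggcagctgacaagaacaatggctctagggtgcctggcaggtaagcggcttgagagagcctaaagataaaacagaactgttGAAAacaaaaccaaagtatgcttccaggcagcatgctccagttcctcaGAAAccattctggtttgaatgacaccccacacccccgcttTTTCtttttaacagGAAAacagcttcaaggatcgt
Cd200 (chr16:45409054-45409303, minus strand): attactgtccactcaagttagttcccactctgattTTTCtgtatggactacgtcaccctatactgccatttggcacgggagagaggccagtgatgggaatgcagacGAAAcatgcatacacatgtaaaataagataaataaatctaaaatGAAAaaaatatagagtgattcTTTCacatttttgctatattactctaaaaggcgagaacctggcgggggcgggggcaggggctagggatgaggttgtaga
Each of the 3 held 4 such matches. The letters are common, since 86.4% of 32851 promoters of this length held at least 1, and so did all 5 of the genes. Searched on both strands, the interferon gamma element TTCNNNGAA (7.02% of all promoters) and the E-box CACGTG of MYC and MAX proteins (6.02%) stood in 0 of the 5 windows. The full interferon element (ISRE, 2.98%) and a kappaB motif (1.41%), given here by name, were found in 0 of the 5 as well. For AP-1 the loose pattern TGANTCA was searched, which allows any middle base and stood in 6.75% of promoters. It was found in that of Cd80, as TGATTCA, 42 bases before its start. These matches describe letters in a short window only.

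Between Mycl KO and WT cells under poly IC, all 10 members lay above 0 and 0 passed limma's test. The sizes of the differences, though not the calls, depended on WT arrays 1 and 4, the arrays with weak interferon response. Leaving these arrays out was chosen after seeing the data. Cd40 shows the pattern, with 11.38, 11.72, 11.26, 11.44 and 11.32 on KO arrays and 9.62, 11.33, 11.51, 9.85 and 11.51 on WT arrays. WT arrays 2, 3 and 5 lay among the KO arrays, and arrays 1 and 4 more than 1 log2 unit below. The difference was 0.66 ± 0.37 (adjusted p = 0.400), and it was -0.02 ± 0.10 (adjusted p = 0.971) without those 2 arrays.

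Cd274 had 10.80, 11.05, 10.71, 10.92 and 10.80 on KO arrays and 9.13, 10.74, 10.77, 9.29 and 10.84 on WT arrays. Cd200 had 10.28, 10.30, 9.78, 9.95 and 10.16 on KO arrays and 7.0, 9.78, 9.97, 7.35 and 10.18 on WT arrays. On WT arrays 1 and 4 Cd200 was near its steady-state level of 6.77 to 7.24 in WT cells of the separately normalized set 2, whereas Cd274 was above its own (7.64 to 8.28). The differences of Cd274 and Cd200 were 0.70 ± 0.34 (adjusted p = 0.361) and 1.24 ± 0.60 (adjusted p = 0.365). Without the 2 WT arrays they were 0.07 ± 0.08 and 0.12 ± 0.12 (adjusted p = 0.869 and 0.850).

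Cd70, Tnfsf4 and Tnfsf9 were at 0.30 or more when those arrays were left out. Cd70 had 7.52, 8.27, 7.99, 8.0 and 8.33 on KO arrays and 5.24, 7.24, 7.54, 5.89 and 7.51 on WT arrays, so that 4 of 5 KO arrays lay above every WT array. Its difference was 1.34 ± 0.42 (adjusted p = 0.288) and, without WT arrays 1 and 4, 0.59 ± 0.15 (adjusted p = 0.198). Leaving out KO array 3 as well gave 0.60 ± 0.17 (adjusted p = 0.198).

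Tnfsf4 had 5.41, 5.87, 5.65, 5.18 and 5.33 on KO arrays and 4.21, 5.15, 4.93, 4.04 and 5.08 on WT arrays, without overlap. The difference was 0.81 ± 0.23 (adjusted p = 0.285), 0.43 ± 0.13 (adjusted p = 0.292) without the 2 WT arrays and 0.39 without KO array 3 as well. Tnfsf9 had 9.84, 10.26, 9.61, 9.73 and 9.73 on KO arrays and 7.11, 9.40, 9.60, 7.61 and 9.60 on WT arrays, a bare separation. Its difference of 1.17 ± 0.47 (adjusted p = 0.321) was 0.30 ± 0.13 (adjusted p = 0.491) without the 2 WT arrays. None of the 3 passed in any of these fits. Groups without overlap were found for these last 2 genes among the 10 members and for 3.56% of the 14033 genes tested, 1.91% being higher in KO.

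The remaining members were closer to 0 without the 2 WT arrays. Cd80, Cd86, Pdcd1lg2 and Icosl differed by 0.43, 0.23, 0.79 and 0.31 with all arrays, and by 0.04, 0.11, 0.11 and 0.04 without them. No test was made of whether Cd70, Tnfsf4 and Tnfsf9 differ from the other members in this. Members called numbered 0 of 10 in each of these fits, beside 0% of genes with all arrays, where 1992 genes and 4 members had an unadjusted p under 0.05. The 3 fits called 0, 10 and 63 genes with all arrays, without the 2 WT arrays and without KO array 3 as well. In a fit of all 8 groups, which gave the members smaller standard errors than set 3 alone, 8 members and 1910 genes were called with all arrays included.

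**Figure D3:**
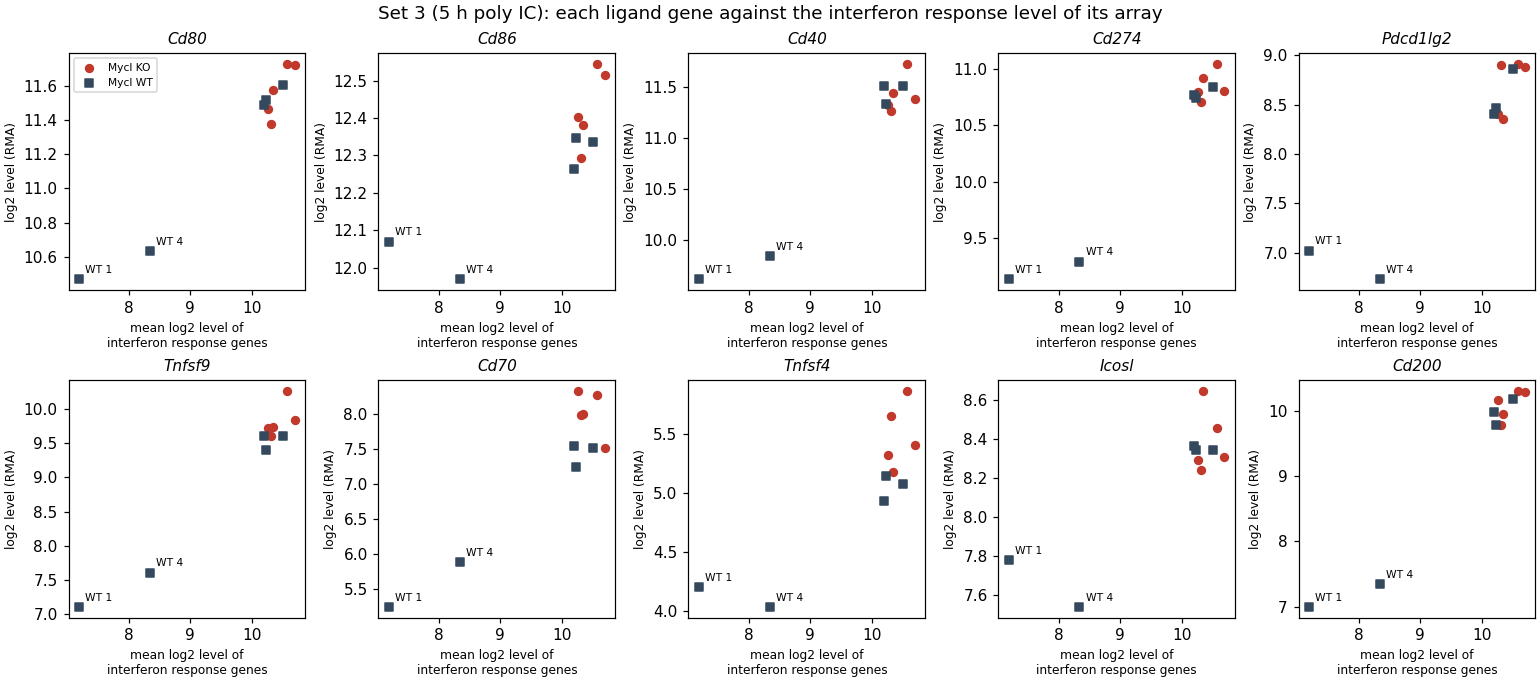
Log2 level of each gene (vertical) against the mean log2 level of 21 interferon response genes on the same array (horizontal), for the 5 Mycl KO (red circles) and 5 WT (dark squares) arrays of set 3. WT arrays 1 and 4, at 7.20 and 8.34, lie at the lower left in every panel. The other WT arrays lie beside the KO arrays except for Cd70, Tnfsf4, Tnfsf9 and Cd86, where they lie near or below the lowest KO array.

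**Figure D4:**
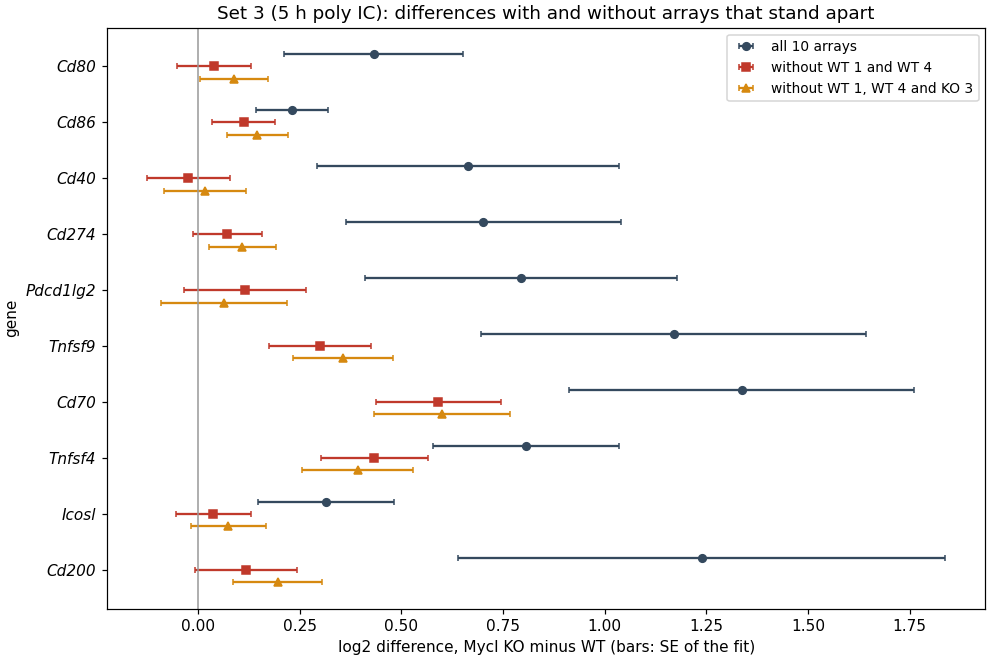
Log2 difference, Mycl KO minus WT, of each gene in set 3 with the SE of the fit, with all 10 arrays (circles), without WT arrays 1 and 4 (squares), and without those and KO array 3 (triangles). The squares of Cd40, Cd80, Icosl and Cd274 lie at -0.02, 0.04, 0.04 and 0.07, while those of Cd70, Tnfsf4 and Tnfsf9 stay at 0.59, 0.43 and 0.30.

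The effect of Mycl under poly IC was set against that at rest by a test of the difference between sets 3 and 2. Of 10 members 0 were called, beside 0.0205% of 14665 genes. Unadjusted p-values were under 0.05 for 3 of the members, and for 1902 of the genes. Tnfsf4 differed by 1.06 ± 0.25 (adjusted p = 0.121), and by 0.69 ± 0.15 (adjusted p = 0.0525) without WT arrays 1 and 4. It entered this test only through its levels under poly IC, and its set 2 levels (means of 3.69 on KO and 3.95 on WT arrays) were below the filter. Cd70 differed by 1.26 ± 0.45 (adjusted p = 0.269) and by 0.51 ± 0.18 (adjusted p = 0.280) without them. For Cd200, Cd40, Cd274 and Pdcd1lg2 the direction turned, at 0.69, 0.36, 0.60 and 0.56 with all arrays and -0.43, -0.33, -0.03 and -0.12 without the 2 arrays, with adjusted p-values of 0.309 or more throughout.

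After 18 h of poly IC, 2 ligands were lower on the arrays labelled Mxd1 KO. Tnfsf9, the 4-1BB ligand, had 6.28, 6.38 and 6.51 there and 7.69, 7.33 and 7.79 on the WT arrays. The groups were separated by more than the range within either. It fell by 1.21 (SE 0.13), to 0.43 of the WT level (adjusted p = 0.0220). Pdcd1lg2, which encodes PD-L2, had 6.93, 6.74 and 6.83 on the arrays labelled Mxd1 KO and 7.58, 7.42 and 7.55 on the WT arrays, again well apart. It fell by 0.68 (SE 0.09; adjusted p = 0.0490). Of 14080 genes, 0.071% were called and 0.0426% fell, against 2 of the 9 members tested.

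These calls were fragile with 3 arrays a group. Tnfsf9 lost its call without WT array 1 or any 1 of the arrays labelled Mxd1 KO (adjusted p of 0.0729 to 0.152), while its difference stayed between -1.35 and -1.12. Pdcd1lg2 kept its call without WT array 2 alone, at differences of -0.73 to -0.63. With all 8 groups in 1 fit neither passed (adjusted p = 0.103 and 0.294), and Pdcd1lg2 also missed the threshold with a common distribution, with centred arrays or with a filter at the 50th percentile (0.0604, 0.0617 and 0.0544).

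Most other members lay lower as well. Cd80 had 10.01, 9.78 and 9.77 on the arrays labelled Mxd1 KO and 10.60, 10.38 and 10.43 on WT arrays (-0.62 ± 0.10, adjusted p = 0.0958). Cd200 had 8.18, 8.27 and 8.10 against 9.11, 8.89 and 8.49 on WT arrays (-0.65 ± 0.15, adjusted p = 0.159). Cd70 had 6.22, 6.22 and 6.23 against 6.60, 6.48 and 6.54 on WT arrays (-0.32 ± 0.07, adjusted p = 0.162). None of the 3 passed, although each pair of groups was apart. Cd80 passed without WT array 2 (adjusted p = 0.0341), where 568 genes were called, and Cd200 passed without WT array 3 (adjusted p = 0.0317).

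Icosl had 8.98, 8.69 and 8.66 on the arrays labelled Mxd1 KO and 9.30, 9.22 and 8.79 on WT arrays, overlapping (-0.32 ± 0.15, adjusted p = 0.332). Cd40 and Cd274 differed by -0.14 and -0.06, with 95% intervals of -0.36 to 0.07 and -0.39 to 0.27. The neighbouring genes of PD-L1 and PD-L2 gave a difference near 0 and a fall, but the difference between the 2 genes was not tested. Cd86 was the member above 0, with 11.08, 10.96 and 11.14 on the arrays labelled Mxd1 KO and 10.62, 11.03 and 10.83 on WT arrays (0.23 ± 0.11, adjusted p = 0.361). Tnfsf4 was below the filter and not tested, at 3.67, 3.84 and 3.63 beside 3.92, 3.94 and 3.88 on WT arrays.

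In all, 8 of 9 tested members lay below 0, with a median of -0.32 beside 0.00 for all genes. Groups did not overlap for 5 of the 9, each lower on the arrays labelled Mxd1 KO, beside 22.6% of genes in either direction and 10.8% in that one. The list of further ligands had 18 members tested, 0 called and a median of -0.04, and the CD40 and NF-kB list had 19 tested, 0 called and a median of -0.14. The mean of 7 genes of migratory dendritic cells, such as Ccr7 and Fscn1, was 10.27, 10.23 and 10.16 on the arrays labelled Mxd1 KO and 10.63, 10.39 and 10.30 on WT arrays, lower without overlap. The cDC1 markers averaged 10.97 to 11.04 on the arrays labelled Mxd1 KO and 10.56 to 10.92 on WT arrays. Interferon response genes averaged 8.69 to 9.06 on the arrays labelled Mxd1 KO and 8.87 to 9.14 on WT arrays, which overlap. Spic, a factor of red pulp macrophages, fell by 1.14 (SE 0.11; adjusted p = 0.0197), 1 of 9 tested markers of monocytes and macrophages to be called. Their part in the ligand differences was not tested.

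Tnfsf9 was higher in Mycl KO cells over the resting sets and lower on the arrays labelled Mxd1 KO, in mice of different treatment. The time after poly IC, the normalization and the genotype differ between these sets, so their differences are given side by side only.

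At 18 h, 9 of the 10 members had lower mean levels in Mxd1 WT cells than in WT cells of set 3 at 5 h, and Icosl had a higher one. As deposited, the differences were 1.03 for Icosl and -1.37 for Cd86, each without overlap. At least 2-fold higher without overlap was 1 of 10 members, beside 9.14% of 14489 genes. At least 2-fold lower without overlap was 1, beside 0.877%. Tnfsf4 lay at -0.77, with its Mxd1 WT level below the filter on low values. For the other 7 the differences ran from -1.06 (Tnfsf9) to -0.03 (Cd200), and the groups overlapped. The median of all genes lay 0.46 higher, so the sizes depend on scale. With a common distribution for all arrays, or with arrays centred on the median, the same 9 lay lower and Icosl higher (0.69 and 0.53). The Icosl groups overlapped with centred arrays. At least 2-fold lower without overlap were 2 and 3 of the 10 members in these scalings, beside 2.85% and 3.89% of genes. At least 2-fold higher without overlap were 0 members in either.

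Over the 35 arrays with group means removed, the genes most like Cd274 were Pfkfb3, a glycolytic regulator (r = 0.96), Ccr7, the homing receptor of migratory dendritic cells (r = 0.96), and Mreg (r = 0.95), and over the 25 arrays outside set 3 these were 0.93, 0.87 and 0.85. Those most like Cd40 were Nxf1, Ccng2 and Pcgf5 (r = 0.97 each, and 0.89, 0.83 and 0.84 without set 3). For Cd200 they were Mfhas1, Casz1 and Tor1aip2 (r = 0.97 each, 0.64, 0.65 and 0.75 without set 3), and for Cd86 Tmem131, Gm8995 and Wee1 (r = 0.82, 0.81 and 0.79, and 0.60, 0.66 and 0.56). Among the 45 pairs of members the median r was 0.77 over all arrays and 0.08 without set 3, where the 2 low WT arrays lie. These correlations are descriptions of arrays that share sets, and carry no test.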

How the data were processed

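The authors deposited log2 values of 35556 transcript clusters on 35 arrays. Per the submitters' processing notes they used Affymetrix Expression Console and RMA (versions not given in the sources used here). Per the labels' protocols, spleens were digested with collagenase, cDC1 were sorted and small amounts of total RNA were amplified. RMA values are relative to the other transcripts of an array, so a change in total RNA per cell is not seen. Clusters were named through the platform annotation (21789 with 1 symbol, 1621 with several, 12146 not listed there), giving 19938 genes. A gene with several clusters was read from the one with the highest mean, which among the members concerned Cd80 (2 clusters).

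A gene was tested if it reached the 30th percentile of named clusters in a number of arrays no lower than the size of the smaller group. Two-sided tests were made with limma 3.58.1 (R 4.3.3). The p-values were adjusted by the Benjamini-Hochberg method over every tested gene, and those under 0.05 were called. The groups of one comparison entered each fit, and differences are KO minus control with their SE. The number of arrays limits the precision. No 2 arrays held identical values.

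All members are named in every comparison. From each further list at most 4 genes that passed the test are named, by size, and for Cd40, Cd86, Cd274 and Cd200 the 3 genes most correlated with them. The members and lists were chosen with earlier results of these data known. The alternatives were other filters, cluster summaries, scalings, variance models, array weights, a fit of all 8 groups, the replicate number as a block, and each array left out in turn. Excluding WT arrays 1 and 4 and KO array 3 of set 3 was chosen after seeing the data.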

Additional observations from a re-analysis of the deposited data

Results flagged for a closer look

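Of 66 combinations of a gene and a group of 4 or 5 arrays, 8 held an array far from the rest of its group, and chance gives about 1 in 20. Cd80 was at 11.68 on KO array 2 of set 1, whose other arrays had 11.51 to 11.52, and at 11.71 on heterozygous array 2, whose others had 11.50 to 11.53. Heterozygous array 5 of set 1 stood apart for Cd86 (12.43, the others 12.30 to 12.34), Cd40 (9.23, the others 9.47 to 9.56) and Mycl (9.65, the others 9.85 to 9.93). WT array 5 of set 2 was high for Cd274 (8.28, the others 7.64 to 7.73) and Pdcd1lg2 (6.27, the others 5.38 to 5.61). KO array 3 of set 3 had Mycl at 8.87, the others 5.52 to 6.14. The 2 low WT arrays of set 3 were not singled out in this way, since each is the other's nearest neighbour.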

How the results depend on the processing

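No member changed direction past the threshold under any alternative. Of the members' values under alternatives, 1431 stayed on their side of the threshold, 28 came to pass and 25 ceased to. Most of these values belong to members not called in the main fits. Of the calls, Pdcd1lg2 and Tnfsf9 of the Mxd1 set passed in 6 and 10 of 15 alternatives. Cd200 of set 2 passed in 18 of 19. Over both resting sets Cd40 passed in 20 of 28, and Cd200 and Tnfsf9 in 27 of 28 each. For set 1 (3 genes, 0 members called) the counts were 5 genes with the filter at the 50th percentile, 6 with a common distribution for all arrays, 141 genes and 1 member (Tnfsf9) with array weights, and 1 to 7 genes with single arrays left out. For set 2 (861 genes, 1 member) they were 2 members with the filter at the 50th percentile, the mean of clusters, a common distribution or a variance trend, 3 with array weights, and 358 genes and 0 members with all 8 groups, with 408 to 1007 genes and 1 to 3 members as single arrays were left out. For set 3 (0 genes) they were 1 gene without a filter, 72 with array weights, 1910 genes and 8 members with all 8 groups, 10 and 63 genes with the exclusions chosen after seeing the data, and 0 to 2 with single arrays left out. For the Mxd1 set (10 genes, 2 members) they were 1 member with the filter at the 50th percentile, a common distribution or centred arrays, 18 genes with array weights, 235 genes and 0 members with all 8 groups, and 3 to 568 genes and 0 to 3 members with single arrays left out. For some settings of set 2 and the Mxd1 set, members are counted without a count of genes. Those member counts cannot be set beside a share of all genes. Over both resting sets (649 genes, 3 members), all 8 groups gave 119 genes and 0 members, and single arrays left out gave 433 to 854 genes and 2 to 5 members. For set 3 minus set 2 (3 genes) the counts were 6 with the filter at the 50th percentile, 9 with a variance trend, 74 genes and 1 member (Tnfsf4) with array weights, 181 genes and 1 member (Tnfsf4) with all 8 groups, 41 and 51 genes with the exclusions, and 1 to 30 with single arrays left out. Tnfsf4 entered these fits only through its poly IC levels, since its set 2 levels were below the filter on low values, so its calls are not measured effects. For set 2 minus set 1 (148 genes) they were 584 with array weights, 15 with all 8 groups and 31 to 317 with single arrays left out. Deviations of same-numbered arrays from their group means correlated at -0.35 to 0.30, so the numbers were taken as names only, and 1 of 3, 0 of 5, 1 of 4 and 1 of 5 numbers of the Mxd1 set and sets 3, 1 and 2 correlated best with themselves. With the replicate number as a block the counts were 1 gene for set 1, 830 genes and 3 members for set 2, 1 gene for set 3, 16 genes and 2 members for the Mxd1 set, 463 genes and 4 members over both resting sets, 2 genes for set 3 minus set 2 and 30 for set 2 minus set 1. The causes of these shifts were not tested. In sets 1 and 2 and the Mxd1 set, Tnfsf4 signal was too low to be tested.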
